A study of Mus musculus with 4 samples.

Results

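The AMPA and kainate receptor subunits are the 9 genes Gria1, Gria2, Gria3, Gria4, Grik1, Grik2, Grik3, Grik4 and Grik5, picked by symbol from the 31053 genes of the count matrix, and all 9 were measured in every library. They were followed in single nuclei of the superior colliculus, a layered midbrain structure that receives retinal and cortical input, from C57BL/6J mice at embryonic day 19 (E19) and at postnatal days 4, 8 and 21 (P4, P8 and P21). No allele, transgene or treatment is named for any group. Each stage is 1 library of nuclei from tissue pooled over several animals, so a change between stages has no replicate and carries no test. The authors' annotation places the 9724 nuclei in 9 classes and 35 subtypes, of which 7552 nuclei are neurons. From E19 to P21 the libraries hold 1338, 1206, 867 and 682 nuclei of excitatory neurons (EN) and 893, 738, 1088 and 740 of inhibitory neurons (IN). Astrocytes number 196, 223, 233 and 287, and the oligodendrocyte lineage 47, 54, 143 and 306.

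Most fast excitatory transmission in the brain runs through AMPA receptors, which are tetramers of the Gria1 to Gria4 subunits. The Gria2 subunit, once its RNA is edited at a glutamine codon in the channel pore, makes the receptor poorly permeable to calcium, and receptors without it pass calcium. Kainate receptors are tetramers of the Grik subunits: those of Grik1, Grik2 and Grik3 form channels by themselves, while those of Grik4 and Grik5 bind glutamate tightly and need one of the other three to make a working channel. They act at synapses on both sides of the cleft and tune release and excitability.

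The pore codon is the point at which the members differ most in consequence, since editing acts on some of them and not on others. It is therefore shown for all 9, in 51 bases of coding sequence taken from the GENCODE M21 annotation of GRCm38 (mm10), 5′ to 3′ on the coding strand, with the codon of the pore position in capitals.
Gria1: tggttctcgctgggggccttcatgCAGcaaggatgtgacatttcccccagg
Gria2: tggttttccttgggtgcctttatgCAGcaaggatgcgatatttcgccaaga
Gria3: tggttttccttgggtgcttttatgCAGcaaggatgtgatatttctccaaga
Gria4: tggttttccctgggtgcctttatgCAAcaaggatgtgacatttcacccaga
Grik1: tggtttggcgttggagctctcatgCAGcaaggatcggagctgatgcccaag
Grik2: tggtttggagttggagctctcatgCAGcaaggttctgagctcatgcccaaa
Grik3: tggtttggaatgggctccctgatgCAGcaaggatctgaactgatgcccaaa
Grik4: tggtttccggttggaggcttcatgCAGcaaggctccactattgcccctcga
Grik5: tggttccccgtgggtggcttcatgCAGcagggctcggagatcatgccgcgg
Each window is read from the spliced transcript and, in all members but Grik4 and Grik5, crosses an exon junction. The genome spells glutamine in every member, with the codon CAG in 8 and CAA in 1, Gria4. Among the AMPA members the Gria2 window shares 48 of 51 bases with Gria3, 45 with Gria4 and 41 with Gria1. The Grik1 and Grik2 windows share 46 bases, and those of Grik4 and Grik5 share 36. Editing itself was not measured, because the files hold counts per gene and no reads.

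The genes lie on 8 chromosomes. Gria1 is at chr11:57011387-57330244 on the plus strand with its pore codon at chr11:57243094-57243096, and Gria2 is at chr3:80681450-80802835 on the minus strand with its codon at chr3:80706911-80706913. Gria3 is X-linked, at chrX:41400854-41678601 on the plus strand (codon chrX:41610265-41610267). Gria4 and Grik4 are both on the minus strand of chromosome 9, at chr9:4417896-4796234 (codon chr9:4464137-4464139) and chr9:42518135-42944493 (codon chr9:42547623-42547625). The other kainate members are Grik1 at chr16:87895900-88290265, minus strand (codon chr16:87940542-87940544), and Grik2 at chr10:49094833-49788766, minus strand (codon chr10:49244329-49244331). Grik3 is at chr4:125490700-125714173, plus strand (codon chr4:125691207-125691209), and Grik5 at chr7:25009849-25072346, minus strand (codon chr7:25022497-25022499). Lengths run from 62.5 kb for Grik5 to 693.9 kb for Grik2. Intronic reads were counted, per the labels, so a long gene collects more of them. Grik2 overlaps 6 predicted genes on its own strand, between which and Grik2 reads could be split, and no member overlaps a gene on the opposite strand.

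Library totals were 19277512, 23579145, 27436259 and 31325079 unique molecular identifiers (UMIs) from E19 to P21, and the median nucleus held 6828, 9044.5, 9672 and 11745 UMIs. Levels are therefore given as CPM, the UMIs of a gene scaled to the same total, of the summed nuclei of a class. Their 95% exact Poisson intervals, like the binomial intervals on shares, cover counting error only. Log2 ratios between stages have 5 CPM added to each level. The depth of the nuclei rose with age in both neuron classes, from a median of 8051.5 to 19601 UMIs in EN and from 6075 to 14009.5 in IN.

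**Figure D1:**
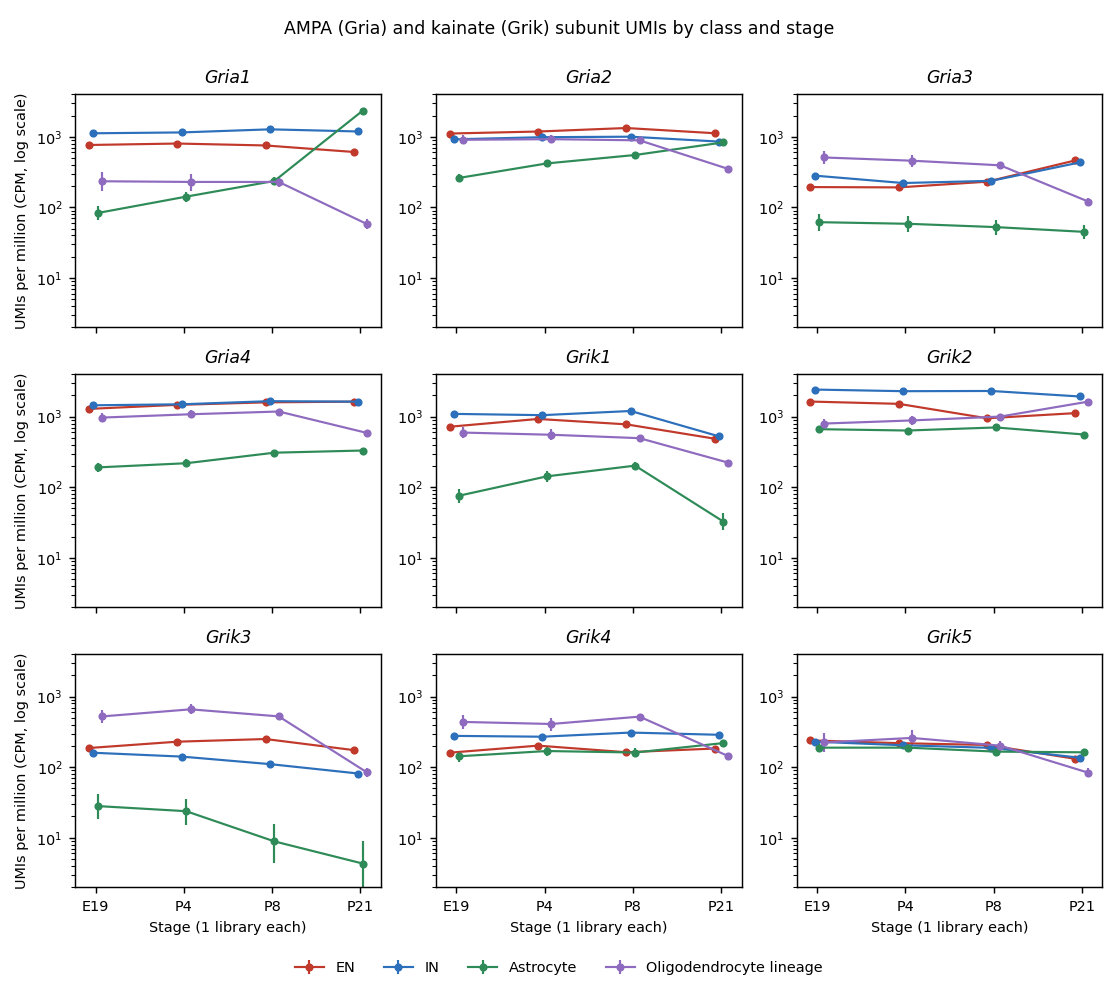
Level of each member (CPM, log scale) at E19, P4, P8 and P21 in excitatory neurons, inhibitory neurons, astrocytes and the oligodendrocyte lineage. Points are 1 library each with 95% exact Poisson intervals, and Gria1 in astrocytes climbs from 83.1 to 2341 CPM.

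Both neuron classes carried all 9 subunits at every stage. Levels of different genes are compared per kilobase of gene, as the mean over the 4 libraries. On that scale Gria2 was highest, at 9.78 CPM per kb in EN and 7.75 in IN, followed by Gria4 at 3.96 and 4.13. Behind them in EN came Grik5 at 3.19, Gria1 at 2.30, Grik2 at 1.89 and Grik1 at 1.85 CPM per kb. Over the libraries Grik5 ran from 2.10 to 3.83 CPM per kb and overlapped Gria4 above it and Gria1, Grik2 and Grik1 below it, which also overlapped one another. Gria3 at 0.97 overlapped Grik3 at 0.94 and also Grik2 and Grik1. Grik4 was lowest in EN, at 0.42 CPM per kb. In IN the order after Gria4 was Gria1 at 3.71, Grik2 at 3.23, Grik5 at 3.03, Grik1 at 2.46, Gria3 at 1.05, Grik4 at 0.67 and Grik3 at 0.55 CPM per kb. There Gria1 overlapped Gria4, Grik5 overlapped Gria1, Grik2 and Grik1, Grik2 overlapped Grik1, Grik1 overlapped Gria3, and Grik3 overlapped Grik4. Scaling by exon length in place of gene length put Gria4 first in both classes, at 238 CPM per kb of exon in EN and 248 in IN, so the order of genes depends on which length is used.

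Inhibitory neurons had more Gria1, Grik2 and Grik4 than excitatory neurons, and less Gria2 and Grik3. The other 4 members did not pass the test. The comparison used edgeR's quasi-likelihood test with the library as a block, in which each of the 4 libraries, a different stage, gives 1 EN and 1 IN sum, so its p-values measure the spread between these libraries. Among 14799 genes tested, 7.72% were called higher in IN and 9.48% lower, or 17.2% in either direction, at a Benjamini-Hochberg adjusted p below 0.05. Of the 9 members 3 were called higher and 2 lower.

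Gria1, the AMPA subunit best known for its movement into synapses during plasticity, stood at 1121, 1152, 1275 and 1189 CPM in IN from E19 to P21 and at 765, 802, 753 and 609 in EN. The lowest IN value lay above the highest EN value, and the per-library log2 difference was 0.70 ± 0.20 (SD, n = 4 libraries). edgeR gave a log2 difference of 0.65, or 1.57-fold, with an adjusted p of 0.00121. Gria2 went the other way, at 920, 986, 1002 and 854 CPM in IN and 1111, 1186, 1330 and 1123 in EN. Every EN value again lay above every IN value, and the per-library difference of -0.33 ± 0.076 (SD, n = 4) had the smallest SD of the 5 called. edgeR put Gria2 1.30-fold lower in IN (adjusted p = 0.0030).

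Grik2, the kainate subunit of most native kainate receptors, was at 2424, 2299, 2315 and 1935 CPM in IN and 1639, 1521, 950 and 1123 in EN, with no overlap between the classes. The edgeR difference was 1.69-fold with an adjusted p of 0.00339, and per library it was 0.80 ± 0.33 on the log2 scale (SD, n = 4). Grik4, a high-affinity partner subunit, stood at 278, 270, 309 and 288 CPM in IN and 160, 202, 163 and 184 in EN (1.57-fold, edgeR adjusted p = 0.00139). Grik3 was the reverse, at 160, 141, 110 and 81.3 CPM in IN and 187, 230, 251 and 174 in EN (1.80-fold lower in IN, edgeR adjusted p = 0.00531). The Grik3 difference on the log2 scale was -0.22 at E19 and -0.68, -1.15 and -1.06 at the later stages.

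Grik1 was higher in IN in 4 of 4 libraries, at 1096, 1051, 1204 and 527 CPM against 721, 929, 779 and 488 in EN, and just missed the threshold (edgeR log2 difference 0.33, adjusted p = 0.0537). Over the alternative settings its adjusted p ran from 0.00131 with nuclei thinned to 1 depth to 0.218 without the P8 library. Grik5, the other high-affinity partner, did not pass, at 240, 219, 207 and 131 CPM in EN and 230, 204, 188 and 136 in IN (edgeR adjusted p = 0.191). Gria4, which is typical of fast-firing neurons, held 1290, 1471, 1596 and 1634 CPM in EN and 1451, 1499, 1660 and 1634 in IN (edgeR log2 difference 0.017, adjusted p = 0.885). Gria3 also did not pass (0.12, adjusted p = 0.445), with library differences of 0.53, 0.20, 0.04 and -0.10 on the log2 scale.

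The EN and IN labels were drawn by the authors from the same counts, so the classes are not independent of the transcriptome as a whole. When neurons were classed instead by the transmitter genes they carry, the same 5 members passed. Those genes come from the same counts, however, and most neurons kept their class. Of 7552 neurons, 314 moved to the other class and 667 had no class by these genes. This alternative is therefore no independent check of the labels. Without the library as a block, which treats the 2 classes of 1 library as unrelated, only Gria1 and Grik4 passed, and edgeR's adjusted p was 0.267 for Gria2, 0.0948 for Grik2 and 0.140 for Grik3.

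**Figure D2:**
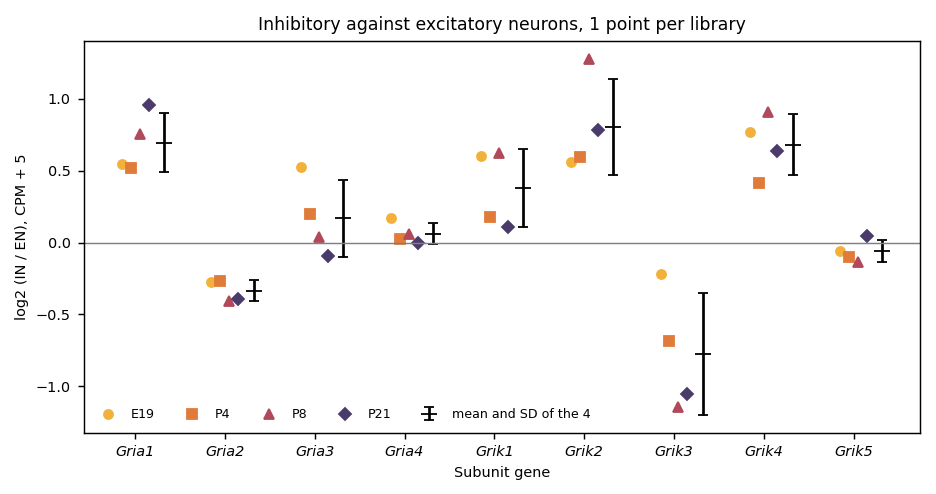
Log2 difference of each member between inhibitory and excitatory neurons, 1 point per library (E19, P4, P8, P21), with the mean and SD over the 4 libraries. Gria1, Grik2 and Grik4 lie above 0 in all 4 libraries, and Gria2 and Grik3 below 0 in all 4.

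With age, Gria3 rose in both neuron classes between P8 and P21, while Grik1 and Grik5 declined over the same interval. These stage changes compare single libraries. In EN 7650 genes reached 20 CPM at E19 or P21, of which 12.8% were past 1.5-fold higher at P21 and 21.5% past 1.5-fold lower. Of the 9 members, 1 was past 1.5-fold higher and 1 lower. In IN the same shares were 14.6% and 21.4% of 7807 genes, and among the members 1 was past 1.5-fold higher and 3 lower. From E19 to P4 no member passed 1.5-fold in either class, while 2.16% and 4.26% of genes did so upwards and downwards in EN, and 2.7% and 4.57% in IN.

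Gria3, a subunit that in the adult usually pairs with Gria2, stood at 194, 192, 231 and 462 CPM in EN and 281, 221, 237 and 432 in IN. The first 3 stages were close together and P21 was apart, 2.35-fold above E19 in EN (log2 1.23, Poisson 95% interval 1.17 to 1.30) and 1.53-fold in IN. Since Gria3 is X-linked and the pools differed in the share of nuclei with sex-linked UMIs, it was also counted in the nuclei with a Y-linked UMI and no Xist UMI. There it was 197, 199, 248 and 482 CPM in EN and 291, 225, 244 and 407 in IN. The P21 value was thus the highest in these nuclei too, although the log2 change in IN was smaller, at 0.48 against 0.61. That set held 84.1%, 54.0%, 54.9% and 30.9% of EN nuclei from E19 to P21, and at P21 55.7% had an Xist UMI and no Y-linked UMI. The make-up by sex thus changed along with stage, and its part in the stage changes of the other members was not tested.

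From P8 to P21, 7.91% of 7117 genes were past 1.5-fold higher and 9.72% lower in EN, and 9.03% and 9.83% of 7328 genes in IN. Gria3 was past 1.5-fold higher in both classes over this step, Grik1 past 1.5-fold lower in both, and Grik5 in EN alone (log2 -0.63, and -0.45 in IN).

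Grik1, a kainate subunit common in inhibitory cells and sensory pathways, went down mainly after P8. In IN it went from 1204 to 527 CPM between P8 and P21 (log2 -1.19) and in EN from 779 to 488 (log2 -0.67), after holding 721 CPM or more in both classes at the 3 earlier stages. Grik5 declined at each step in both classes, to log2 -0.84 in EN and -0.74 in IN over the whole span. Grik3 in IN went down at each step as well (log2 -0.94 from E19 to P21), whereas in EN its first and last levels were 187 and 174 CPM. Giving each IN subtype the same weight reduced the Grik3 change to log2 -0.40. Of 12 IN subtypes, 9 had less Grik3 at P21 than at E19, 8 of them past 1.5-fold. The other 3 had more, 1 of them past 1.5-fold, and the median subtype ratio was log2 -1.15. Gria1, Gria2, Gria4 and Grik4 moved by less than 1.5-fold between E19 and P21 in both classes as a whole, with log2 ratios from -0.33 to 0.34. Some subtypes moved further. Under median-of-ratios size factors the median log2 ratio of all genes moved from -0.06 to 0.05 in EN and from -0.04 to 0.07 in IN, and the members past 1.5-fold kept their direction.

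The neuron subtypes moved together for some of the members and not for others. Of the 25 neuron subtypes (13 EN, 12 IN), EN7 and EN11 fell under 20 nuclei by P21, which leaves 11 EN and 12 IN subtypes for a comparison of E19 with P21. Gria3 was higher at P21 in 11 of 11 EN and 11 of 12 IN subtypes. Grik5 was lower in 11 of 11 and 12 of 12. Grik1 was lower at P21 than at P8 in 11 of 11 EN and 12 of 12 IN subtypes, but lower than at E19 in 8 and 10. For these 3 genes the class change and the change inside the subtypes had the same direction.

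Grik2 in EN did not follow that pattern. Its class level went from 1639 to 1123 CPM between E19 and P21 (log2 -0.54), while 9 of 11 EN subtypes were higher at P21. The subtype EN2 had the most Grik2 at E19, 4131 CPM, and shrank from 287 to 36 nuclei, with 1931 CPM at P21. Weighting the EN subtypes alike brought the class change to log2 -0.10. In IN, Grik2 was higher at P21 in 4 subtypes and lower in 8. Gria2 was lower in 8 of 11 EN and 8 of 12 IN subtypes, in all EN cases by less than 1.5-fold, and Gria4 was higher in 8 of 11 EN and 10 of 12 IN subtypes. Gria1 was lower at P21 in 8 of 11 EN subtypes, 5 of them past 1.5-fold, and in 7 of 12 IN subtypes, 1 past 1.5-fold. Grik4 was higher in 7 of 11 EN subtypes, 6 of them past 1.5-fold, and in 8 of 12 IN subtypes, 3 past 1.5-fold.

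The members differed widely in how far their level ran across the subtypes within 1 library. At P21 the highest EN subtype had 136 times the Grik1 of the lowest and 16.5 times the Gria1. In IN the widest range was that of Grik3, at 61.8 times. The lowest subtypes rest on few UMIs, 14 for Grik1 in EN9 and 5 for Grik3 in IN7, so these 2 ratios are rough. Grik5 was the flattest member, with a range of 1.47 times over EN and 1.51 times over IN subtypes, and Gria2 followed with 2.35 and 1.53 times. The subtypes were defined by the authors on the same counts, so these ranges are descriptions.

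**Figure D3:**
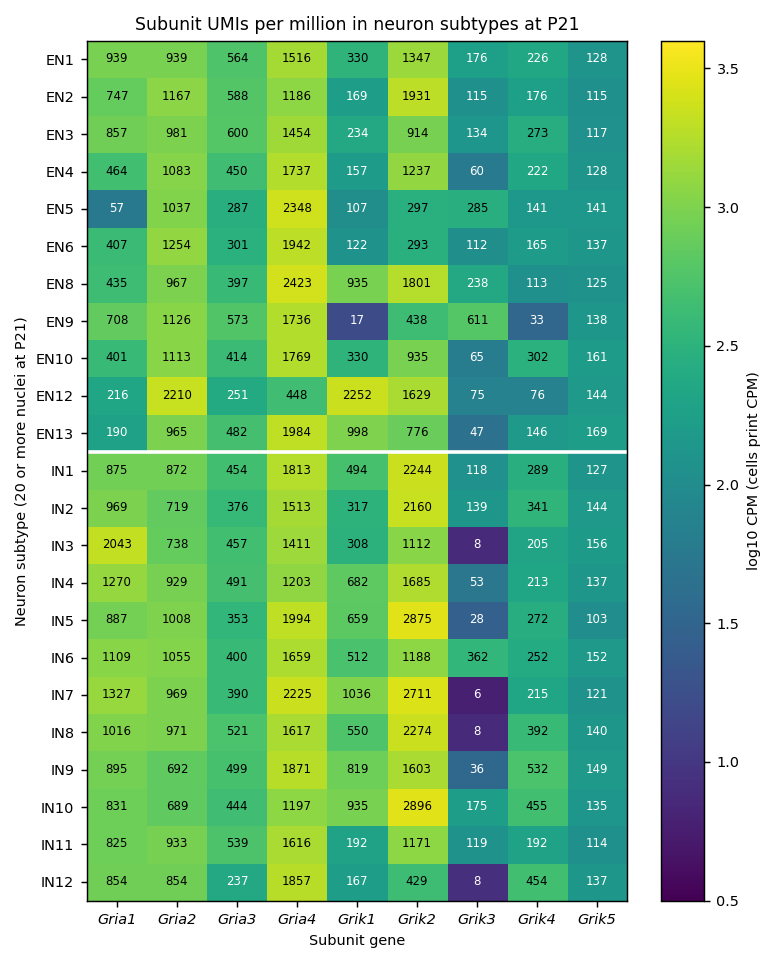
Level (CPM, printed in each cell, colour on a log scale) of the 9 members at P21 in the 11 EN and 12 IN subtypes with enough nuclei. EN12 stands apart with 2252 CPM of Grik1, EN9 with 16.5 CPM, and EN5 with 56.9 CPM of Gria1.

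EN12 was the excitatory subtype richest in Gria2 and Grik1 and poorest in Gria4. Its Gria2 was 1986, 2341, 2182 and 2210 CPM from E19 to P21 and its Grik1 2079, 1907, 2321 and 2252, whereas Gria4 was 609, 570, 579 and 448 and Gria1 206, 430, 506 and 216. Gria3 in EN12 was 56.7, 195, 182 and 251 CPM. Among the EN subtypes EN12 was lowest in Gria1 at E19 only and in Gria3 at P21 only. It holds 22, 36, 59 and 41 nuclei. The high Gria2 and Grik1 and the low Gria4 were present at every stage. EN12 thus did not take part in the later decline of Grik1 seen in the EN class. EN9 was its opposite in the kainate family, with Grik1 at 68.6, 91.7, 69.1 and 16.5 CPM and Grik3 at 462, 400, 510 and 611.

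EN5 and EN6 had little Grik2. In EN5 it was 174, 233, 178 and 297 CPM and in EN6 238, 196, 237 and 293, far under the class level at each stage. EN5 also lost Gria1, at 470, 533, 275 and 56.9 CPM, while its Gria4 was 1609, 1391, 1658 and 2348. The 2 AMPA subunits thus went in opposite directions in this subtype, though not in it alone. Between E19 and P21 EN6 went from 1392 to 407 CPM of Gria1 and from 1412 to 1942 of Gria4. EN8 went from 782 to 435 and from 1645 to 2423. In EN9 both were lower at P21, at 708 against 763 CPM of Gria1 and 1736 against 1965 of Gria4. In EN5, EN6, EN9 and EN12 the summed excitatory markers were 161 to 320 CPM and the inhibitory ones 19.0 to 58.0, so excitatory markers lead in all 4.

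Among inhibitory subtypes, IN10 held the most Grik2, at 5359, 3710, 3990 and 2896 CPM, together with Grik1 at 2008, 1727, 1664 and 935. Both declined from E19 to P21. IN12 was low in both, with Grik2 at 358, 674, 379 and 429 CPM and Grik1 at 290, 536, 503 and 167. IN7 almost lacked Grik3, at 31.2, 16.8, 4.41 and 5.85 CPM, and so did IN3, at 23.2, 12.6, 9.06 and 7.53. IN8 and IN12 were also low in it at P21, at 7.54 and 8.33 CPM. In IN6, by contrast, Grik3 was 328, 398, 382 and 362. IN3 raised Gria1 from 1049 to 2043 CPM, the opposite of EN5. IN9 had the highest Grik4 of the inhibitory subtypes at P21, with 559, 623, 731 and 532 CPM over the stages.

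The order of the subtypes was kept for some members and not for others. Spearman's rho between the subtype levels at E19 and at P21 was 0.95 for Grik1 and 0.92 for Grik2 over 11 EN subtypes, and 0.92 for Grik4 over 12 IN subtypes. Grik3 gave 0.85 in EN and 0.83 in IN, and Gria2 0.76 and 0.80. Grik1 was lower in IN, at 0.52, and Gria3 gave 0.48 in EN and 0.17 in IN. For Grik5 it was -0.45 in EN and -0.10 in IN. The subtypes of a stage share their library and their depth, and these correlations carry no test.

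Because Gria2 governs calcium entry, its share of all AMPA subunit UMIs was followed. The share is one of nuclear UMIs, not scaled by gene length, and so is no subunit stoichiometry. In EN it was 33.1% (Clopper-Pearson 95% interval 32.6 to 33.5), 32.5%, 34.0% and 29.3% (29.0 to 29.7) from E19 to P21. In IN it was 24.4% (23.8 to 24.9), 25.6%, 24.0% and 20.8% (20.4 to 21.2). IN was lower than EN at all 4 stages, and both classes were lowest at P21.

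Across subtypes the share covered a broad span. EN12 had 69.5%, 66.2%, 63.3% and 70.7% of its AMPA UMIs from Gria2, with an interval of 69.2 to 72.2 at P21. EN8 had 24.4%, 25.8%, 28.5% and 22.9%, the lowest share among the EN subtypes with enough nuclei at each stage but P8. In IN6 the share was lower at each successive stage, at 41.0%, 36.8%, 31.8% and 25.0%, as its Gria2 went from 1943 to 1055 CPM. IN3 went from 20.6% to 15.9%, and IN10 from 17.2% to 21.8%.

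**Figure D4:**
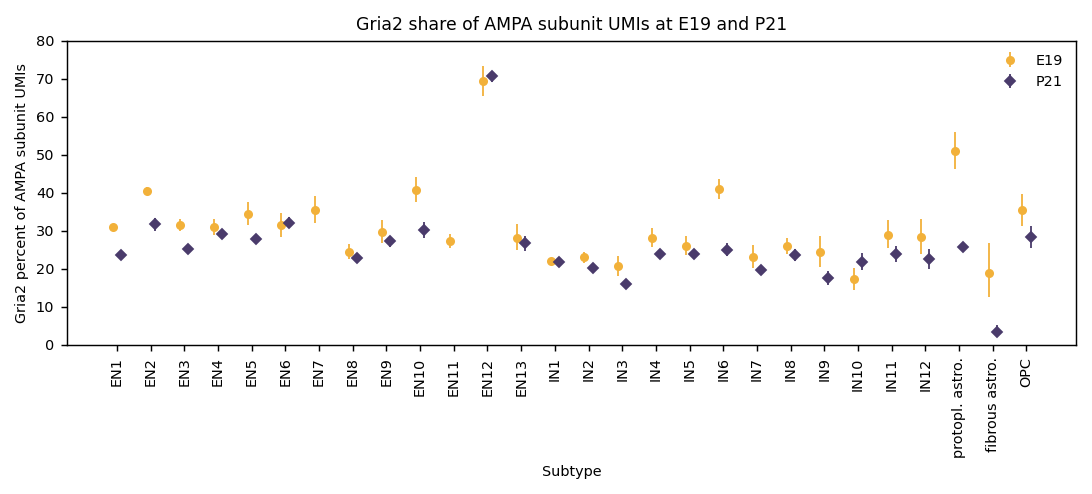
Gria2 as a percentage of all AMPA subunit UMIs at E19 and P21 in each subtype, with 95% Clopper-Pearson intervals. EN12 stands at 69.5% and 70.7%, far from every other neuron subtype, and fibrous astrocytes end at 3.28%.

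At the level of the classes, the balance of the 2 families moved towards AMPA with age. AMPA subunits made up 53.3%, 54.1%, 62.5% and 64.6% of the UMIs of all 9 members in EN and 47.4%, 49.3%, 50.3% and 58.1% in IN. Within the subtypes the share was higher at P21 than at E19 in 7 of 11 EN and 11 of 12 IN subtypes, and lower in the other EN subtypes EN3, EN6, EN9 and EN13. Between P4 and P8, where the EN class share moved most, EN1 went from 419 to 131 nuclei, EN2 from 107 to 44 and EN7 from 191 to 1. At P21 the subtypes ran from 40.8% in IN10 and 42.8% in EN12 to 79.3% in EN5 and 82.5% in EN6. Within the kainate family Grik2 supplied 55.6%, 49.1%, 40.4% and 53.5% of UMIs in EN and 57.9%, 58.0%, 56.1% and 65.2% in IN.

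Astrocytes had less of most subunits than neurons, and 1 of them, Gria1, came up late. In the test of astrocytes against all neurons (4 libraries, edgeR), 7 of 9 members were called lower and 0 higher, against 23.1% of 14787 genes lower and 21.9% higher. At an unadjusted p below 0.05 edgeR also had 0 higher, and DESeq2 called 8 lower and 0 higher. The largest differences were in Grik3 (log2 -3.84, adjusted p = 1.42e-04), Grik1 (-3.31, 1.06e-04) and Gria4 (-2.78, 3.59e-05). Gria3 was at -2.50, Grik2 at -1.60 and Gria2 at -1.42. Grik4 was the smallest of the called differences, at -0.58 with an adjusted p of 0.0154, and it missed the threshold (adjusted p from 0.0551 to 0.0894) when the E19, P4 or P8 library was left out. Grik5 did not pass (-0.33, adjusted p = 0.124).

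Gria1 in astrocytes was 83.1, 142, 236 and 2341 CPM from E19 to P21. Against neurons that was a log2 difference of -3.34, -2.64, -2.05 and then 1.44 in the P21 library. The 4 libraries thus did not share a direction, and the test gave -2.07 with an adjusted p of 0.0812. Without the P21 library it was -2.94 with an adjusted p of 3.17e-05, and all 9 members were then called lower. The astrocyte markers sat at 2209, 2160, 3203 and 5960 CPM in these nuclei. Vascular leptomeningeal cells had 1447 to 3164 CPM of them over the stages, a range that holds the E19 and P4 astrocyte values. That sum alone therefore does not set the 2 classes apart at those stages. Leptomeningeal markers did differ, at 36.7 to 74.3 CPM in astrocytes and 1964 to 4897 in leptomeningeal cells.

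Between E19 and P21, 4 members were past 1.5-fold higher in astrocytes and 2 lower, beside 14.9% and 32.9% of 8577 genes. The rises were in Gria1 (log2 4.73), Gria2 (1.66, from 260 to 832 CPM), Gria4 (0.78, from 191 to 331) and Grik4 (0.61, from 143 to 220). Over the same span microglia and endothelial nuclei went from 53.7 to 157 CPM of Gria1, from 77.6 to 276 of Gria2, from 125 to 249 of Gria4 and from 11.9 to 59.5 of Grik4, so that the astrocyte Gria4 level was not far above theirs at either end. In fibrous astrocytes alone, an alternative chosen after seeing the data, the Gria2 and Gria4 ratios were -0.56 and -0.47. Grik1 and Grik3 went down, by log2 -1.10 and -1.83. Astrocyte Grik3 was low throughout, at 28.1, 23.8, 8.87 and 4.31 CPM, against 0, 3.31, 7.41 and 32.5 in microglia and endothelial nuclei. At P8 it lay within the Poisson interval of those nuclei (0.897 to 26.8), and at P21 below it (11.9 to 70.7). The astrocyte Grik1 values were 75.6, 143, 202 and 32.6 CPM. Microglia and endothelial nuclei pooled, taken as a rough guide to free RNA, had 131, 109, 130 and 119. Only at P8 did the astrocyte value lie above the pooled Poisson interval (90.3 to 180), and at P21 it lay below that interval (74.6 to 180). By that guide little can be read from the astrocyte level at the stages other than P8. Vascular leptomeningeal cells held less Grik1 than the pool, at 54.6, 52.8, 54.0 and 32.7 CPM. Which of the 2 lies nearer to free RNA was not tested. Under median-of-ratios scaling the median of all genes moved from -0.24 to 0.03 in astrocytes and none of these 6 turned.

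The timing of Gria1 differed between the 2 astrocyte subtypes. In protoplasmic astrocytes, the branched cells of grey matter, it was 44.9 CPM (Poisson 95% interval 30.9 to 63.0), 56.1, 82.4 and 2354 (2274 to 2436), in 155, 175, 188 and 232 nuclei. In fibrous astrocytes, those of white matter, it was 231 (168 to 310), 439, 949 and 2258 (2067 to 2462), in 41, 48, 45 and 55 nuclei. The 2 subtypes ended within counting error of each other, but at E19, P4 and P8 the fibrous level was the higher one, beyond counting error, and it rose at each step. Whether the difference between the subtypes exceeds the spread between animals was not tested.

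Gria1 was found in nearly every astrocyte nucleus at P21. A Gria1 UMI was found in 23.0%, 28.3%, 33.5% and 97.9% of astrocyte nuclei, and in 12.8%, 17.5%, 25.3% and 93.0% once each nucleus was thinned to 2300 UMIs. Microglia and endothelial nuclei, which were taken as a guide to free RNA, gave 19.2%, 15.6%, 30.6% and 26.7%, or 15.4%, 6.67%, 19.4% and 22.2% after thinning. Median depths were 4697, 4329, 5124 and 5525 UMIs in astrocytes and 4407.5, 3681, 3724 and 3011 in the background types. The astrocyte share at P21 was far above the background types. At the 3 earlier stages the protoplasmic Gria1 level overlapped theirs within Poisson intervals, 53.7, 23.2 and 48.1 CPM, and the fibrous level lay above it. Over the same stages the summed neuron markers in astrocytes went from 663 to 386 CPM and the mature oligodendrocyte markers from 38.9 to 725. Myelinating oligodendrocytes themselves held 27.4 CPM of Gria1 at P21.

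The 2 astrocyte subtypes parted in Gria2. In the protoplasmic subtype it climbed, at 295, 497, 639 and 953 CPM, while in the fibrous one it was 126, 146, 145 and 83.8. The fibrous values overlapped those of microglia and endothelial nuclei, 77.6, 126, 130 and 276 CPM, within Poisson intervals at the first 3 stages and lay below them at P21, so they cannot be told from free RNA. Gria2 then made up 51.1%, 64.4%, 59.0% and 25.7% of AMPA UMIs in protoplasmic astrocytes. In fibrous astrocytes the share went from 18.9% to 13.8%, 10.0% and 3.28%, which is 19 of 580 UMIs at P21 (Clopper-Pearson 1.98 to 5.07). Grik2 also ran in opposite directions, from 735 to 480 CPM in the protoplasmic subtype and from 394 through 510 and 845 to 1050 in the fibrous one.

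**Figure D5:**
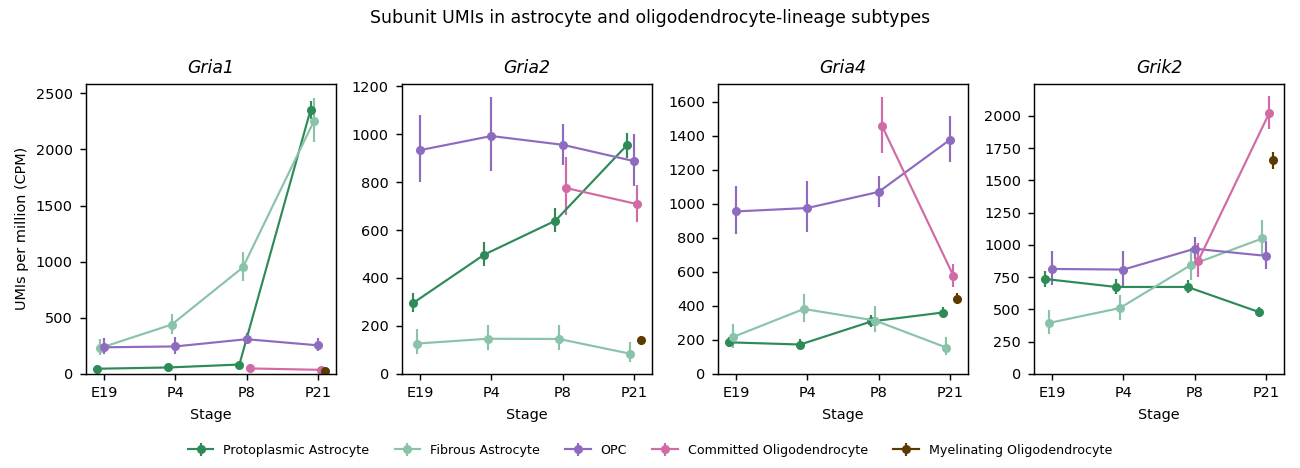
Gria1, Gria2, Gria4 and Grik2 (CPM, linear scale) by stage in protoplasmic and fibrous astrocytes, oligodendrocyte precursors, committed precursors and myelinating oligodendrocytes, with 95% exact Poisson intervals. Gria1 reaches 2354 and 2258 CPM in the astrocyte subtypes at P21 and stays between 236 and 308 CPM in the precursors.

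The oligodendrocyte lineage as labelled changed its make-up, from 46 of 47 nuclei being precursors (OPC) at E19 to 187 of 306 being myelinating cells at P21. Its mature oligodendrocyte markers rose from 275 to 19938 CPM. In the edgeR test against neurons over 4 libraries, 2 of 9 members were called lower, Gria1 (log2 -2.59, adjusted p = 9.62e-04) and Grik1 (-0.98, 0.0187), and 0 higher. Of 14347 genes, 13.1% were called lower and 9.17% higher. DESeq2 called 4 lower and 0 higher. At an unadjusted p below 0.05 edgeR had 1 member higher, Grik3 (0.93, adjusted p = 0.0989). Grik1 lost its call when the P4 library (adjusted p = 0.108) or the P8 library (0.124) was left out.

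Precursors alone, taken as an alternative after the data had been seen, had a profile of their own. Against neurons, 3 members were then called higher by edgeR, beside 1562 of 14063 genes (11.1%): Grik3 (log2 1.25, adjusted p = 1.71e-08), Grik4 (1.01, 2.08e-06) and Gria3 (0.79, 1.72e-04). Another 5 were called lower, beside 2415 genes (17.2%): Gria1 (-2.02), Grik2 (-1.14), Gria4 (-0.70), Grik1 (-0.65, adjusted p = 0.00109) and Gria2 (-0.42, adjusted p = 0.0303). Grik5 did not pass (0.11, adjusted p = 0.723). OPC levels in CPM from E19 to P21, in 46, 42, 109 and 64 nuclei, were 525, 606, 504 and 331 for Grik3 and 446, 458, 593 and 558 for Grik4. For Gria3 they were 514, 535, 459 and 624. OPCs receive synapses from neurons and are known to carry AMPA receptors.

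Over the whole lineage, 8 of the 9 members were past 1.5-fold lower at P21 than at E19 and 1, Grik2, was higher (799 to 1637 CPM, log2 1.03), beside 40.4% and 22.2% of 8611 genes. Under median-of-ratios scaling the median of all genes in the lineage moved from -0.31 to 0.07. In OPCs alone the picture was different, with Gria1 at 236, 244, 308 and 254 CPM and Gria2 at 934, 993, 956 and 888. Gria4 in OPCs was 955, 975, 1069 and 1376. Myelinating oligodendrocytes at P21 were low in Gria3 (24.3 CPM), Grik3 (7.66), Grik4 (43.4) and Gria2 (139), and kept Gria4 at 442 CPM and Grik2 at 1654. Committed precursors at P21 had 708 CPM of Gria2 and 179 of Grik3, between the OPC and the myelinating values, but 2026 CPM of Grik2, above both, and 20.6 of Grik1, below both. Grik2 accounted for 31.0% of kainate UMIs in the lineage at E19 and 75.3% at P21.

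Of the smaller classes, the vascular leptomeningeal cells had Gria3 at 95.5, 83.3, 158 and 213 CPM. The class labelled epithelial held Gria4 at 984 and 753 CPM and Gria2 at 106 and 76.4 at P8 and P21, in 32 and 40 nuclei. Its label is not borne out by epithelial markers, which summed to 4.80 to 7.28 CPM with Epcam at 0, while leptomeningeal markers summed to 648 to 666. Microglia and endothelial nuclei together gave more than traces of several members at P21, with 157 CPM of Gria1, 249 of Gria4, 276 of Gria2 and 406 of Grik2. A glial value of the same gene and stage that is no higher cannot be told from free RNA. Myelinating oligodendrocytes of the same library held less, 27.4 CPM of Gria1 and 139 of Gria2. The pooled level is thus a rough guide to free RNA, and what else adds to it was not tested.

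AMPA and kainate receptors reach the membrane with auxiliary subunits, and lists of these genes were examined beside the members. Between IN and EN, 3 of 21 AMPA auxiliary and assembly genes were called higher in IN and 6 lower by edgeR, beside 7.72% and 9.48% of all genes, and their median log2 difference was -0.08. The leading ones were Shisa6, which limits AMPA receptor desensitisation, at -1.67 (adjusted p = 1.68e-05), Cacng5 at -0.83 (0.0156) and Shisa9 at -0.68 (1.48e-04). Cacng2, the founding member of the transmembrane AMPA regulators, did not pass (0.10, adjusted p = 0.404). Of the kainate auxiliary pair, Neto2 was higher in IN (0.94, adjusted p = 9.47e-04) and Neto1 did not pass (0.11, 0.319).

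Scaffold and transport genes gave 3 higher and 5 lower of 14 tested, beside the same 7.72% and 9.48% of all genes, among them Grip1, which anchors Gria2 and Gria3, at 0.53 (edgeR adjusted p = 4.85e-04). The editing enzyme Adarb1, which recodes the pore codon of Gria2, was lower in IN (-0.40, edgeR adjusted p = 0.00733). Adarb2, a relative without known editing activity, was higher in IN by 2.10 (adjusted p = 1.28e-05).

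In astrocytes against neurons 8 of the 21 AMPA auxiliary genes were called lower and 2 higher, beside 23.1% and 21.9% of all genes, with Cacng2 at -3.48 (edgeR adjusted p = 5.51e-05). Both Neto genes were lower, Neto1 by -2.86 and Neto2 by -1.27 on the log2 scale, as was Adarb1 at -2.21. The oligodendrocyte lineage was higher than neurons in Cacng4, a transmembrane AMPA regulator, at 1.69 (edgeR adjusted p = 0.0032), and lower in Cacng2 at -3.31. In that comparison 2 of 21 auxiliary genes were called higher and 6 lower, beside 9.17% and 13.1% of all genes, and neither Neto gene passed.

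With age some auxiliary genes went up and others down in both neuron classes. From E19 to P21, Cacng4 went from 223 to 28.5 CPM in EN and from 214 to 32.9 in IN. Cnih2, a chaperone-like AMPA partner, went from 58.4 to 9.31 in EN and from 63.4 to 7.17 in IN. Cacng7 rose from 52.8 to 116 CPM in EN and from 58.2 to 123 in IN, and Syndig1 from 72.7 to 160 and from 54.0 to 165. Of the 19 auxiliary genes measured well enough, 4 in EN and 6 in IN were past 1.5-fold higher and 3 in each class lower. Over all genes the shares were 12.8% higher and 21.5% lower in EN and 14.6% and 21.4% in IN. Adarb1 rose as well, from 101 to 194 CPM in EN and from 83.2 to 177 in IN. Neto2 declined, from 134 to 50.5 CPM in EN and from 232 to 123 in IN. Changes between stages here, as for the members, come from 1 library each.

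The genes whose levels ran most like those of the members were sought over 56 profiles of subtypes in single libraries and 3828 genes, with Pearson's r on log2 levels. Grik5 had the closest companions, Rac3 and Mapt at 0.88 and Cacnb3 at 0.87. Gria1 was most like Dscam (0.72), Gria2 most like Bcl11b (0.71), Gria3 most like Slc7a14 (0.71) and Gria4 most like Epha6 (0.70). Among the kainate members, Grik2 was most like Nrxn3 (0.73), Grik3 most like Fstl5 (0.70), Grik1 most like Npepps (0.67) and Grik4 most like Zfpm2 (0.53). Between members the highest value was that of Grik1 with Grik2, at 0.66, and the lowest that of Gria3 with Grik5, at -0.47. The profiles share libraries and depth, and the correlations are descriptions.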

How the data were processed

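Nuclei were profiled with a droplet 3′ assay, and the authors deposited a matrix of whole-number UMI counts per gene and nucleus with an annotation table. Per the labels' processing notes, Cell Ranger 3.0.2 and the mm10 genome were used, with a reference that counts intronic reads. The annotation's deposited percent of mitochondrial UMIs reached at most 5, and 9 of its other columns were not used. Classes and subtypes are the authors'. How doublets were treated is not given in the sources used here, and none were removed. Libraries share 9 barcode sequences.

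Counts were summed per library and class or subtype. Classes were compared with edgeR 4.0.16 (quasi-likelihood, TMM, expression filter, library as block) in R 4.3.3, over all genes, with DESeq2 1.42.0 as an alternative. The block is the library, since the 2 classes compared in it come from 1 tissue pool. Stages, with 1 library each, were compared as ratios and called at 1.5-fold, for genes whose larger value reached 20 CPM. On simulated counts for inhibitory against excitatory neurons, the test recovered 99% of changes of log2 1 and 100% of log2 2. For astrocytes it recovered 89% and 94%, and for the oligodendrocyte lineage 57% and 96%. The simulated libraries shared the same gene profile and a small fixed dispersion, without stage effects. Changes were placed only in well-counted genes. Recovery in the real libraries, each another stage, may therefore be lower. Other tools were Python 3.11.15, numpy 2.4.6, scipy 1.17.1, pandas 2.3.3 and matplotlib 3.10.9. Members and gene lists were chosen with earlier results of these data known. Of list genes, those with the largest called difference in each direction and the canonical members were named, and for likeness the genes with the highest r. The gene Klhl17 of the scaffold list was not measured.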

Additional observations from a re-analysis of the deposited data

Results flagged for a closer look

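In the 27 sets of 4 per-library differences between classes, 6 had 1 library far from the other 3, all of them the P21 library in the comparison of the oligodendrocyte lineage with neurons. Chance flags about 1 in 20 sets of independent, like replicates. The sets here share their libraries and nuclei across members, and each library is another stage. The 6 flags are therefore not 6 separate events, and that rate is no measure for them. The P21 log2 differences were -3.79 for Gria1, -1.5 for Gria2, -1.86 for Gria3, -1.47 for Gria4, -0.638 for Grik3 and -0.647 for Grik4, each the lowest of its 4. In that library 187 of the 306 lineage nuclei are myelinating oligodendrocytes. The precursors taken alone held 254 CPM of Gria1, 888 of Gria2, 624 of Gria3, 1376 of Gria4, 331 of Grik3 and 558 of Grik4 at P21.

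Some members went in opposite directions between E19 and P21 in 2 classes, by more than 1.5-fold in each, and these differences were not tested. Gria1 had a log2 ratio of 4.73 in astrocytes and -1.93 in the oligodendrocyte lineage, Gria2 of 1.66 and -1.35, Gria4 of 0.779 and -0.72, and Grik4 of 0.606 and -1.57. Gria3 had 1.23 in excitatory and 0.612 in inhibitory neurons and -2.04 in the oligodendrocyte lineage. In precursors alone the ratios were 0.10 for Gria1, 0.28 for Gria3, 0.52 for Gria4 and 0.32 for Grik4, so the opposite sign was not present there for these 4.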

How the results depend on the processing

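Dropping the library as a replicate block left 2 members higher and 0 lower in inhibitory neurons. Leaving out each library in turn gave 3 to 4 higher and 2 lower there, 6 to 9 lower and 0 higher in astrocytes against neurons, and 1 to 5 lower and 0 to 3 higher in the oligodendrocyte lineage. In that lineage DESeq2 gave 4 lower, and precursors alone, chosen after seeing the data, 3 higher and 5 lower, with Grik5 at 0.106. Between classes, signs turned in differences near 0: between inhibitory and excitatory neurons Gria3 ran from -0.0124 to 0.217 and Gria4 from -0.0318 to 0.0415 over the left-out libraries (lowest without E19), and Gria4 was -0.0226 with subtypes weighted alike and -0.0192 with thinned nuclei. For the lineage Gria3 ran from -0.0898 without E19 through -0.0363 without P4 to 0.846 without P21.

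For E19 to P21 in excitatory neurons, 3 members were past 1.5-fold lower with nuclei weighted alike and 3 with thinned nuclei, and 0 past 2-fold. In inhibitory neurons 0 were past 2-fold higher and 1 lower. Fibrous astrocytes alone, chosen after seeing the data, turned Gria2 to -0.56, Gria4 to -0.47 and Grik3 to 0.43, Grik1 from E19 to P4 to -0.0068 and Gria2 from P8 to P21 to -0.76. The fibrous Grik3 ratio rests on 1 UMI at E19 and 2 at P21. Precursors alone, likewise chosen later, turned Gria1 to 0.10, Gria3 to 0.28, Gria4 to 0.52, Grik4 to 0.32 and Grik5 to 0.23. From P8 to P21 they turned Gria3 to 0.44, Gria4 to 0.36, Grik2 to -0.084 and Grik5 to 0.30.

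The Gria2 share in excitatory neurons at E19 was 34.2% with subtypes weighted alike, 34.1% with nuclei weighted alike and 34.1% thinned, and at P21 30.8%, 29.9% and 30.0%. In inhibitory neurons it was 26.2% and 25.0% at E19 with subtypes and nuclei weighted alike, and at P21 21.5% in both, 21.2% by transmitter genes and 21.7% thinned. Of the other values, 1076 kept their side and direction, 406 moved, 24 became stronger and 9 weaker. With 1 library per stage, no spread between animals is known, and glial values are limited by free RNA. Microglia and endothelial nuclei, taken as a rough guide to it, held up to 406 CPM (Grik2 at P21).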
